A study of Mus musculus with 2 samples.

Results

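The genes described here are 34 collagen chains and collagen-modifying proteins, taken by symbol from the 32285 genes counted in nuclei of mouse liver after a MASH diet: 8 fibrillar chains, 6 chains of type IV, 4 of type VI, 2 of type VIII, 1 of type VII, 3 FACIT chains, 2 multiplexins, 3 membrane-spanning collagens, and 5 enzymes and chaperones. Male C57BL6/J mice received, from 10 to 12 weeks of age and for 5 months, a diet that induces metabolic dysfunction–associated steatohepatitis (MASH), with 40% of its energy from fat, 20% from fructose, and 2% cholesterol. There were 2 libraries of single-nucleus RNA-seq (snRNA-seq), 1 per group: one labelled Flox, with the genotype *Themis* flox/flox and the letters WT in its title, and one labelled HKO, with the genotype *Themis* Alb-Cre, in which Cre recombinase is driven by the albumin promoter of hepatocytes. Liver of several mice was pooled in each library before the nuclei were sorted, so the libraries could be compared with each other but not tested, and an effect of genotype cannot be told apart from any other difference between the 2 preparations. Values are given as a pair, that of the library labelled Flox before that of the library labelled HKO, and a ratio is the second over the first.

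Collagens are built from 3 chains wound into a triple helix. Prolyl and lysyl hydroxylases modify the chains in the endoplasmic reticulum, the chaperone HSP47 holds the finished helix, and the protein is then secreted and cross-linked. Fibrillar collagens of types I, III and V form the scar of a fibrotic liver, type IV collagen forms the sheet beneath epithelia and around vessels, and FACIT collagens decorate the surface of fibrils. Hepatic stellate cells, which store vitamin A in healthy liver, are known as the main producers of fibrillar collagen once they are activated by injury.

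*Themis*, which acts in signaling by the T cell receptor, was examined first as a check of the labels. In hepatocyte-like nuclei it had 7524 and 6824 UMIs (unique molecular identifiers, each a counted transcript), or 162 and 246 counts of UMIs per 1000000 UMIs of the type (CPM), a ratio of 1.52 with a 95% interval of 1.47 to 1.57. In T and NK-like nuclei it was at 257 and 431 CPM, a ratio of 1.68 (1.08–2.64). The gene was therefore higher, not lower, in the library labelled HKO, which goes against the label, although counts summed over the 3′ end do not tell whether an exon was deleted. The direction of every comparison below is between the libraries as labelled. All intervals cover counting error only, not the spread between mice.

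The library labelled Flox held 9363 barcodes and 58171337 UMIs, and that labelled HKO 10748 barcodes and 40475938 UMIs, with medians of 6216 and 2228 UMIs per nucleus. The libraries shared 27 barcodes, 0.288% and 0.251% of each. After 701 and 920 likely doublets and 3 and 27 nuclei with fewer than 300 detected genes had been left out, 8659 and 9801 nuclei remained. They were assigned to cell types by their UMIs of marker genes, none of which was a collagen or other member: 5868 and 4551 hepatocyte-like, 808 and 1133 stellate-like, 777 and 1221 endothelial-like, 127 and 457 cholangiocyte-like, and 629 and 1515 macrophage-like nuclei. All 11 stellate markers that had not been used in the assignment were highest in stellate-like nuclei in both libraries. Free RNA sets a floor under these values: the same 11 markers had, at the median, 0.144% and 0.206% of their stellate-like CPM in hepatocyte-like nuclei and 0.635% and 1.44% in endothelial-like nuclei. Unused hepatocyte markers reached, at the median, 10.0% and 7.39% of their hepatocyte-like CPM in stellate-like nuclei.

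Stellate-like nuclei were where most collagen genes had their highest level. Of the 34 members, 31 had at least 50 UMIs in the 5 types, and 18 of these were highest in stellate-like nuclei in both libraries. For *Col6a6* and *Col15a1* this place rested on 1 and 9 UMIs in the library labelled Flox, with intervals that held the hepatocyte-like levels. In both libraries, *Col13a1* was highest in endothelial-like nuclei, *Col4a3*, *Col4a4* and *Col4a5* in cholangiocyte-like nuclei, and *Col5a3* and *Col18a1* in hepatocyte-like nuclei, whereas none was highest in macrophage-like nuclei. *Col25a1* had its highest CPM in endothelial-like nuclei too, but from 4 and 2 UMIs, so that its place there was not detectable at this depth. The type with the highest level differed between the libraries for *Col27a1*, *Col4a2*, *Col7a1*, *Col12a1*, *Col23a1* and *Plod1*. For each of these genes, the interval of the highest type overlapped that of another type in at least 1 library. Their change of place is thus not a difference between the libraries that was told apart at this depth. CPM of a 3′ library is not corrected for differences between genes in capture, so levels are compared between types and libraries for 1 gene at a time.

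**Figure D1:**
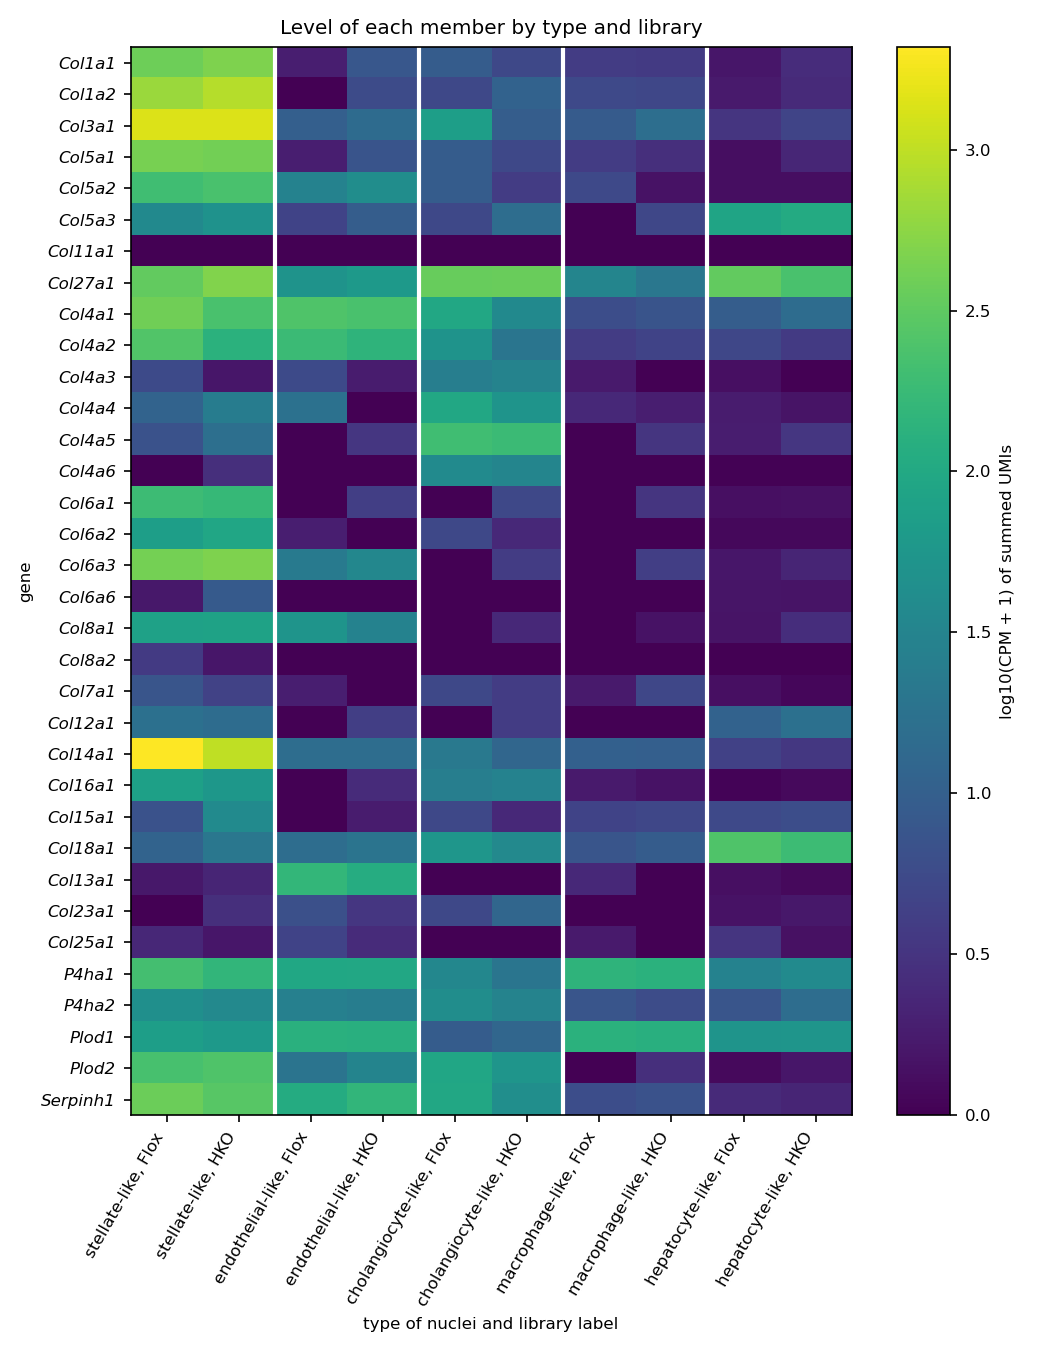
Level of each member (colour, as log10 of CPM + 1) in 5 cell types (columns, with the libraries labelled Flox and HKO side by side); rows are members ordered by their role. Fibrillar and type VI chains are brightest in the stellate-like columns, *Col18a1* and *Col5a3* in the hepatocyte-like columns, and *Col4a5* in the cholangiocyte-like columns.

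The chains of type I and type III collagen, the bulk of scar collagen, were found almost wholly in stellate-like nuclei. *Col1a1*, the α1 chain of type I collagen, had 593 and 801 UMIs there, at 390.3 CPM (359.6–423) and 471 CPM (439–504). These UMIs were 94.4% and 92.6% of all *Col1a1* UMIs in the 5 types, and the gene in hepatocyte-like nuclei, at 0.604 and 1.66 CPM, stood at 0.155% and 0.352% of the stellate-like level, close to the level of free RNA. *Col1a2*, its partner chain, was at 650.3 CPM (610.4–692) and 888 CPM (844–934). *Col3a1*, the chain of type III collagen, was at 1395 CPM (1336–1456) and 1375 CPM (1320.0–1432). The 2 libraries thus stood apart in the type I chains, by a ratio of 1.21 (1.08–1.34) for *Col1a1* and 1.37 (1.26–1.48) for *Col1a2*, and not in *Col3a1*, whose ratio was 0.986 (0.929–1.05). The ratios of the type I chains depended on how the nuclei were typed. A first form of the marker rule, which left out part of the collagen-rich nuclei and was changed for that reason, gave 1.05 for *Col1a1* and 1.23 for *Col1a2*. After each nucleus had been thinned to 1000 UMIs, 45.8% (42.2–49.3) of 789 and 53.5% (50.3–56.6) of 967 stellate-like nuclei had a UMI of *Col1a1* or *Col1a2*. *Col1a1* alone was found in 21.0% and 25.4% of these stellate-like nuclei. Among endothelial-like nuclei treated alike, 1 of 664 and 2 of 550 had a UMI of *Col1a1*. Median depths of the unthinned nuclei were 1773 and 1416 UMIs in the stellate-like and 1317 and 970 UMIs in the endothelial-like type.

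Promoter sequences of *Col1a2* and *Col3a1* are shown because both genes were found in the same nuclei and yet stood apart in how the libraries compared. Each covers 250 bases before to 50 bases after the start site in RefSeq (GRCm38.p6), read 5′ to 3′ on the strand of the gene. *Col1a2* lies at chr6:4505368-4505667 on the plus strand and *Col3a1* at chr1:45311288-45311587 on the plus strand. Capitals mark matches to 3 promoter motifs on either strand. One is CCAAT, the core letters bound by the factor NF-Y, another is GGGCGG, the box bound by factors of the SP family, and the last is TATAAA, the TATA box. Positions are counted from the start site, and no matches overlap.
Col1a2: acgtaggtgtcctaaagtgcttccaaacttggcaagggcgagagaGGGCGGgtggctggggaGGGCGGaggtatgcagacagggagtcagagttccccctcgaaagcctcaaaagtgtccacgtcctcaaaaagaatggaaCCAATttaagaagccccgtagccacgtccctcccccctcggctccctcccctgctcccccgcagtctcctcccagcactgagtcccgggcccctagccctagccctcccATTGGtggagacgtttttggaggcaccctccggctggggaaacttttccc
Col3a1: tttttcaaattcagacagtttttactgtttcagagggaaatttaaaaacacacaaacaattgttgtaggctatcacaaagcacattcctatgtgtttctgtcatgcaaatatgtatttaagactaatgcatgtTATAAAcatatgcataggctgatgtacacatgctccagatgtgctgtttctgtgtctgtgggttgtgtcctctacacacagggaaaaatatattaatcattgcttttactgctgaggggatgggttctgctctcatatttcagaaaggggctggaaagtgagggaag
The *Col1a2* window held CCAAT at position -109 on the plus strand and at position 1 on the minus strand, and GGGCGG at positions -205 and -188. The *Col3a1* window held neither, but TATAAA at position -117. A window was found for 28 of the 34 members, 30 windows in all, and CCAAT occurred in 10 of these members, GGGCGG in 22 and TATAAA in 4. Among all 32851 promoter windows of the table, 37.4% held CCAAT, 35.7% GGGCGG and 13.6% TATAAA. These are matches of letters and not measured binding sites.

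The type V chains, which sit inside type I fibrils and control their width, split between cell types. *Col5a1* was at 429.8 CPM (397.5–464) and 412 CPM (382.5–444) in stellate-like nuclei, a ratio of 0.960 (0.861–1.07). *Col5a2*, which lies next to *Col3a1* on chromosome 1, was at 199 and 233 CPM, a ratio of 1.17 (1.004–1.36). A lower level of *Col5a2*, 29.0 and 40.9 CPM, was present in endothelial-like nuclei, at 14.5% and 17.5% of the stellate-like level and so above the median of free stellate RNA there. *Col5a3*, the α3 chain, went against this pattern. Its level in hepatocyte-like nuclei was 85.0 CPM (82.4–87.7) and 106 CPM (102–110.1), from 3940 and 2945 UMIs that made up 98.5% and 96.3% of its UMIs, and in stellate-like nuclei it was 36.9 and 48.8 CPM, or 43.4% and 45.9% of the hepatocyte-like level. *Col11a1*, the last fibrillar chain that is usually found with type V, had 1 UMI in the 5 types.

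*Col27a1*, a fibrillar chain first known from cartilage, was found at similar levels in several types. It was at 330.4 and 483 CPM in stellate-like nuclei, 355 and 363 CPM in cholangiocyte-like nuclei, and 328 and 228 CPM in hepatocyte-like nuclei. The libraries differed in opposite directions: the ratio was 1.46 (1.31–1.64) in stellate-like and 0.695 (0.675–0.716) in hepatocyte-like nuclei, and 1.02 (0.798–1.32) in cholangiocyte-like nuclei. In macrophage-like nuclei it was at 31.1 and 19.4 CPM, 9.50% and 8.50% of its hepatocyte-like level, which lies near the median of free hepatocyte RNA there.

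The fibrillar chains together were at 3432 CPM (3340.0–3527) and 3911 CPM (3817–4006) in stellate-like nuclei, a ratio of 1.14 (1.10–1.18). Among the 22 members with at least 50 UMIs over both libraries in these nuclei, 2 were at least 1.5 times as high in the library labelled HKO, *Col4a4* and *Col15a1*, against 5.49% of all 7562 genes with that many UMIs. In the other direction, 3 members were lower by at least 1.5 times, *Col4a1*, *Col4a2* and *Col14a1*, against 11.9% of all genes. The median ratio of the members was 0.999, and that of all these genes 0.963. The interval of the ratio lay above 1 for 7 of the 22 members, below 1 for 6, and held 1 for 9. No share over all genes stands beside this count, so it is not a result about the members.

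**Figure D2:**
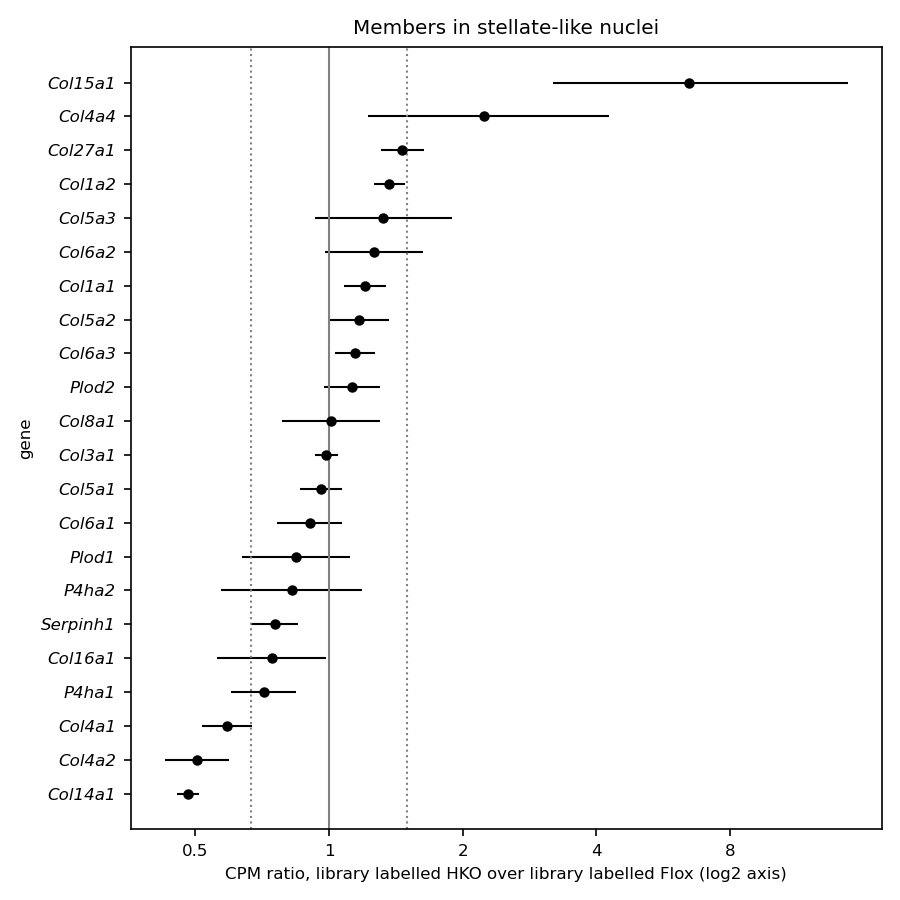
Ratio of CPM in the library labelled HKO over that labelled Flox (log2 axis) in stellate-like nuclei for the 22 members with at least 50 UMIs; points are ratios, bars their 95% intervals from counting error, and the dotted lines mark 1.5-fold. *Col14a1*, *Col4a2* and *Col4a1* lie lowest, at 0.482, 0.505 and 0.590, and *Col15a1* highest, at 6.45.

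Stellate-like nuclei fell into 2 clusters when nuclei were clustered with all collagens and all other members left out. Cluster 4 held 673 of 808 and 777 of 1133 stellate-like nuclei (83.3% and 68.6%), cluster 5 held 129 and 352 (16.0%, 13.5–18.7, and 31.1%, 28.4–33.9), and the few others lay elsewhere. Median depths were alike in both clusters, 1762 and 1428 UMIs in cluster 4 and 1782 and 1368 in cluster 5. *Rgs5*, a marker of quiescent stellate cells and pericytes, was at 336 and 481 CPM in cluster 4 and at 36.6 and 38.3 CPM in cluster 5, whereas *Eln*, which encodes elastin, was at 46.9 and 45.3 CPM in cluster 4 and 179 and 170.5 CPM in cluster 5. These marker levels describe clusters that were formed on such genes and are not results. *Lrat*, the vitamin A storage enzyme, was present in both clusters, at 1287 and 926 CPM in cluster 4 and 647.5 and 440.5 CPM in cluster 5, and the clusters are given by number.

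Collagen genes that had been left out of the clustering differed widely between these clusters. In cluster 5, *Col1a1* was at 1140.0 and 944 CPM, against 248 and 255 CPM in cluster 4, ratios of 4.60 (3.90–5.42) and 3.70 (3.20–4.28). *Col1a2* was 3.38 (2.96–3.84) and 2.80 (2.53–3.11) times as high in cluster 5 as in cluster 4, *Col27a1* 3.17 (2.63–3.80) and 3.07 (2.67–3.54) times, and *Col6a3* 2.61 (2.20–3.09) and 2.63 (2.28–3.02) times. Not all fibrillar chains followed. *Col3a1* was 1.78 (1.61–1.97) and 1.89 (1.74–2.06) times as high, while *Col5a1* stood at 0.878 (0.699–1.09) and 0.673 (0.561–0.803) of its level in cluster 4. *Col14a1* was lower in cluster 5, at 0.640 (0.571–0.716) and 0.587 (0.521–0.661) of cluster 4.

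Within the clusters the ratios of type I collagen were lower than over all stellate-like nuclei. For *Col1a1* the ratio was 1.03 (0.876–1.21) in cluster 4 and 0.828 (0.714–0.962) in cluster 5, beside 1.21 over all. For *Col1a2* it was 1.21 (1.08–1.36) and 1.01 (0.893–1.14), beside 1.37, and for *Col27a1* 1.21 (1.03–1.41) and 1.17 (0.987–1.39), beside 1.46. Over all stellate-like nuclei, up to 47 of 593 and 30 of 801 *Col1a1* UMIs lay in 1 nucleus. The intervals do not cover such spread between nuclei, so the direction of *Col1a1* in cluster 5 was not settled. The higher type I sum of the library labelled HKO thus stood beside its larger share of cluster 5 nuclei. The genes that were lower in that library over all stellate-like nuclei were lower within both clusters too: *Col14a1* stood at 0.519 (0.486–0.554) and 0.476 (0.409–0.553), *Col4a1* at 0.628 (0.542–0.727) and 0.486 (0.359–0.660), and *Col4a2* at 0.490 (0.403–0.594) and 0.600 (0.403–0.899). Portal fibroblast genes, a list of 11, moved with this too. They summed to 130.3 and 166 CPM in stellate-like nuclei, a ratio of 1.28 (1.06–1.54), with none of the 11 at 0. Of these UMIs, 103 of 198 and 146 of 283 were *Eln*. The list was as high in endothelial-like nuclei, at 148 and 171 CPM, and its part in the result was not tested.

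**Figure D3:**
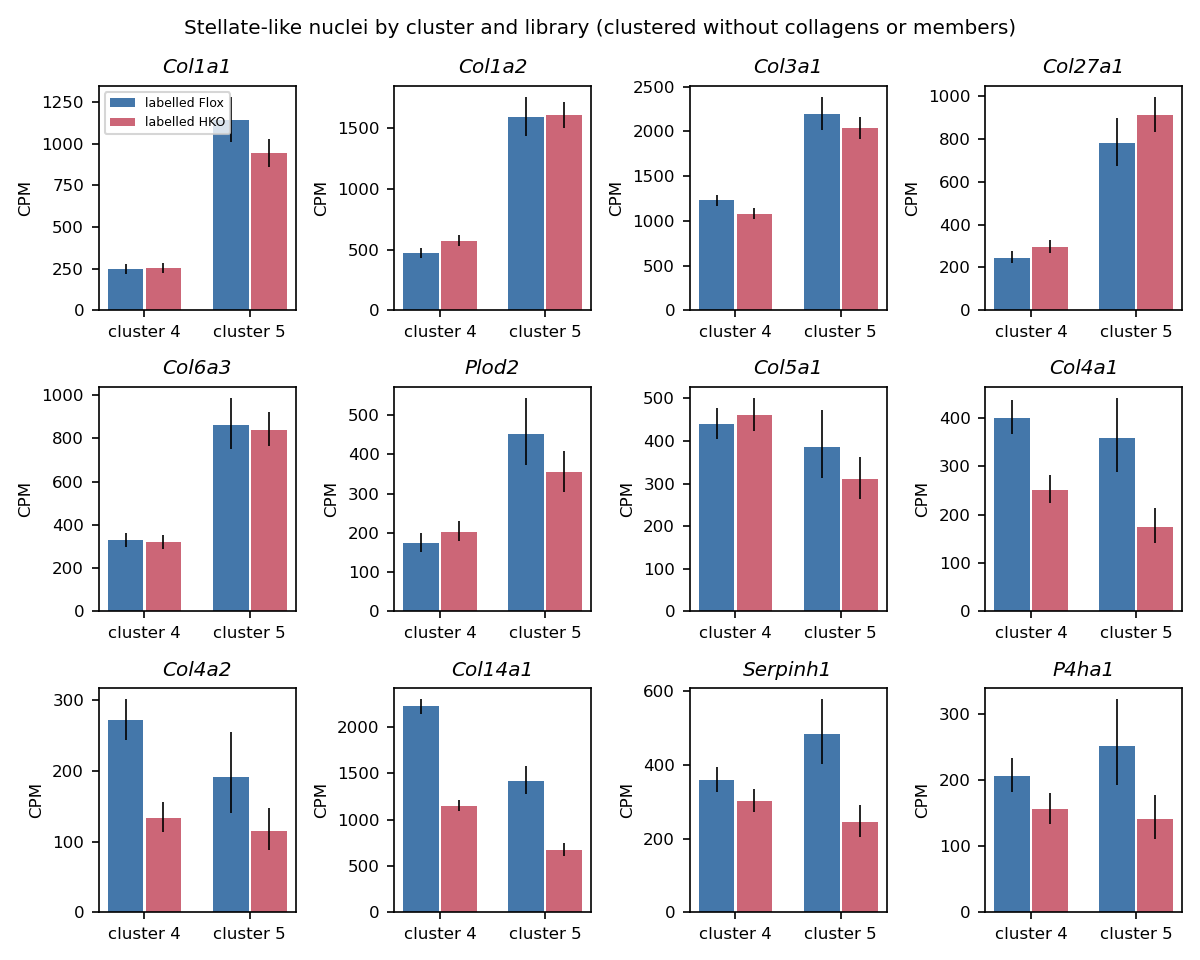
Level in CPM of 12 members in stellate-like nuclei of clusters 4 and 5, for the libraries labelled Flox (blue) and HKO (red); bars are levels and lines 95% intervals from counting error. *Col1a1*, *Col1a2*, *Col27a1* and *Col6a3* separate the clusters, whereas *Col14a1*, *Col4a1* and *Col4a2* separate the libraries within each cluster.

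Splitting the nuclei by collagen itself gave a further view. Among stellate-like nuclei thinned to 1000 UMIs, *Col3a1* was 1.66 (1.47–1.88) and 1.88 (1.67–2.12) times as high in nuclei with a type I UMI as in those without. *Col5a2* and *Col4a1* followed in the same way, at 1.84 and 1.86 times and at 1.73 and 1.54 times. *Serpinh1*, the HSP47 chaperone gene, was 1.56 (1.23–1.99) and 1.35 (1.05–1.74) times as high, whereas *Col14a1*, at 1.12 (1.01–1.24) and 1.03 (0.905–1.17) times, hardly moved with type I. The ratio of *Col14a1* between the libraries was 0.483 in nuclei with a type I UMI and 0.525 in those without.

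*Col14a1*, a FACIT collagen on the surface of fibrils, had the largest gap between the libraries among the members with over 1000 UMIs in stellate-like nuclei. It had 3163 and 1707 UMIs, at 2082 CPM (2010.0–2156) and 1003 CPM (956–1052), a ratio of 0.482 (0.454–0.511). At most 112 of these UMIs came from 1 nucleus, and a UMI was found in 706 of 808 and 716 of 1133 nuclei, so the level was broadly spread. Across the alternatives of processing the ratio lay between 0.475 and 0.504. *Dcn*, which encodes decorin, another protein that binds fibrils and here also a marker used to tell the type, stood at a like ratio, 0.493 (0.475–0.513). The 11 stellate markers not used in the assignment summed to 3907 and 2879 CPM in these nuclei. Members lower in the library labelled HKO thus stood beside lower stellate markers, whose part in these ratios was not tested. *Col16a1*, a further FACIT collagen, was at 75.0 and 55.8 CPM in stellate-like nuclei, a ratio of 0.744 (0.560–0.985), and was also present in cholangiocyte-like nuclei, at 25.1 and 28.4 CPM.

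*Col12a1*, the remaining FACIT member, had a second source. In stellate-like nuclei it had 24 and 24 UMIs, at 15.8 and 14.1 CPM, and 21 and 20 of these came from cluster 5. In hepatocyte-like nuclei it had 462 and 434 UMIs, at 9.97 CPM (9.08–10.9) and 15.7 CPM (14.2–17.2), a ratio of 1.57 (1.37–1.79). The hepatocyte-like nuclei thus held 95.1% and 93.5% of its UMIs. This was far above the free RNA that stellate genes leave in hepatocyte-like nuclei.

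The multiplexins *Col15a1* and *Col18a1* are basement membrane proteins that release anti-angiogenic fragments. *Col15a1* had 9 and 65 UMIs in stellate-like nuclei, found in 7 and 54 nuclei, at 5.92 CPM (2.71–11.2) and 38.2 CPM (29.5–48.7), a ratio of 6.45 (3.20–14.7). It was the largest ratio among the 22 members. All 9 UMIs of the library labelled Flox lay in cluster 5, and in that labelled HKO 49 lay in cluster 5 and 16 in cluster 4. Within cluster 5 the ratio was 2.56 (1.25–5.93). In hepatocyte-like nuclei *Col15a1* was at 4.38 and 5.01 CPM, a ratio of 1.14 (0.916–1.43). These nuclei held 203 and 139 of its UMIs, 93.1% and 64.65% of those in the 5 types. In the library labelled Flox its stellate-like and hepatocyte-like levels were not told apart at this depth. *Col18a1* had 99.5% and 98.1% of its UMIs in hepatocyte-like nuclei, and its CPM was highest there in both libraries.

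Type IV collagen genes lie in 3 pairs that start back to back, and the first pair was highest in other cell types than the other pairs. *Col4a1* and *Col4a2*, on chromosome 8, encode the chains of the ordinary basement membrane, and their start sites are 21 bases apart. *Col4a3* and *Col4a4*, on chromosome 1, start 72 bases apart, and *Col4a5* and *Col4a6*, on chromosome X, 1309 bases apart in the GENCODE annotation of GRCm38. The promoter windows of the first pair are printed because both chains were lower in stellate-like nuclei of the library labelled HKO. *Col4a1* lies at chr8:11312777-11313076 on the minus strand and *Col4a2* at chr8:11312555-11312854 on the plus strand, each read on its own strand, with the same motifs in capitals as above.
Col4a1: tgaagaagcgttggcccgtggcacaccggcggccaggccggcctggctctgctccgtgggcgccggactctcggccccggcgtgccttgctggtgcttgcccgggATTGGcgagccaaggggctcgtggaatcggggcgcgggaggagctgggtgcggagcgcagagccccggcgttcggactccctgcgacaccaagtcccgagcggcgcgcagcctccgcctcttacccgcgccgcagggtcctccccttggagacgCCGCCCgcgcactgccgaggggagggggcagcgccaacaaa
Col4a2: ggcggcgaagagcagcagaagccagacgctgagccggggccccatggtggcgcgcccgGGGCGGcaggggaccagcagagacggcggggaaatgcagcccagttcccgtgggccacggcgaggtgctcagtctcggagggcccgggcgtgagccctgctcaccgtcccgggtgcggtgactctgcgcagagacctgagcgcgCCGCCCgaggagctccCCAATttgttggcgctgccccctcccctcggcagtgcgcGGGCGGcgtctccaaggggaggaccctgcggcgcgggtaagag
The windows share 78 bases, chr8:11312777-11312854. The *Col4a1* window held CCAAT at position -145 and GGGCGG at position 10, both on the minus strand of that window, and the *Col4a2* window held CCAAT at position -32 and GGGCGG at positions -192 and 8 on the plus and -48 on the minus strand. Neither held TATAAA.

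Both chains of the ordinary basement membrane were highest in stellate-like and endothelial-like nuclei, and of these types only the former stood far apart between the libraries. In stellate-like nuclei *Col4a1* was at 394 CPM (363–426.5) and 232 CPM (210–256), a ratio of 0.590 (0.518–0.670). *Col4a2* was at 259 CPM (234–286) and 131 CPM (114–149), a ratio of 0.505 (0.427–0.597). In endothelial-like nuclei *Col4a1* was at 256.5 and 232 CPM, a ratio of 0.904 (0.766–1.07), and *Col4a2* at 179.5 and 142 CPM, a ratio of 0.793 (0.645–0.975). The sum of both chains had a ratio of 0.556 (0.502–0.615) in stellate-like and 0.859 (0.755–0.977) in endothelial-like nuclei, intervals that did not overlap. Lists of endothelial genes were set beside these values, and of the vascular list only *Rspo3* had an interval below 1 in stellate-like nuclei. A list of 10 vascular endothelial genes summed to 1074 and 584.5 CPM in stellate-like nuclei, a ratio of 0.544 (0.503–0.590), with *Wnt9b* and *Bmx* at 0 and *Vwf* at 0 and 4 UMIs. Most of this sum, 1393 of 1631 and 712 of 995 UMIs, was *Rspo3*, which encodes a WNT signal enhancer. A list of 6 sinusoidal endothelial genes was at 26.3 and 26.4 CPM in stellate-like nuclei, a ratio of 1.004 (0.641–1.58), and at 4365 and 3655 CPM in endothelial-like nuclei, a ratio of 0.837 (0.804–0.872). The part of *Rspo3* and of the sinusoidal genes in these results was not tested. Stellate-like nuclei of the library labelled Flox were above its endothelial-like nuclei in both chains, and in that labelled HKO the types were at 232 and 232 CPM in *Col4a1*. Hepatocyte-like nuclei had 8.52 and 14.0 CPM of *Col4a1* and 4.12 and 2.67 CPM of *Col4a2*. In cholangiocyte-like nuclei *Col4a1* had 23 and 26 UMIs, at 96.1 and 36.9 CPM, a ratio of 0.384 (0.211–0.704). *Col4a2* had 12 and 13 UMIs there, a ratio of 0.368 (0.155–0.882). Lower levels in the library labelled HKO were thus not particular to stellate-like nuclei.

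The other pairs pointed to cholangiocyte-like nuclei, the bile duct epithelium. *Col4a5* was at 201 CPM (148–266) and 180.3 CPM (150.3–214) there and at 5.92 and 15.3 CPM in stellate-like nuclei, and *Col4a6*, with 41 UMIs in all nuclei, was at 37.6 and 31.2 CPM. The ratios were 0.899 (0.640–1.28) and 0.830 (0.367–2.05), with no difference detectable at this depth. *Col4a3* had 6 and 21 UMIs there, at 25.1 and 29.8 CPM, and *Col4a4* had 23 and 36 UMIs, at 96.1 CPM (60.9–144) and 51.1 CPM (35.8–70.8), a ratio of 0.532 (0.307–0.940). The chains *Col4a3* to *Col4a6* are known from kidney and other specialised basement membranes. *Col4a4* appeared in further types. In stellate-like nuclei it had 16 and 40 UMIs, a ratio of 2.23 (1.22–4.27), with 34 of the 40 in cluster 5, and in endothelial-like nuclei it had 18 UMIs in 15 nuclei for the label Flox and 0 for the label HKO, which allows up to 2.36 CPM.

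**Figure D4:**
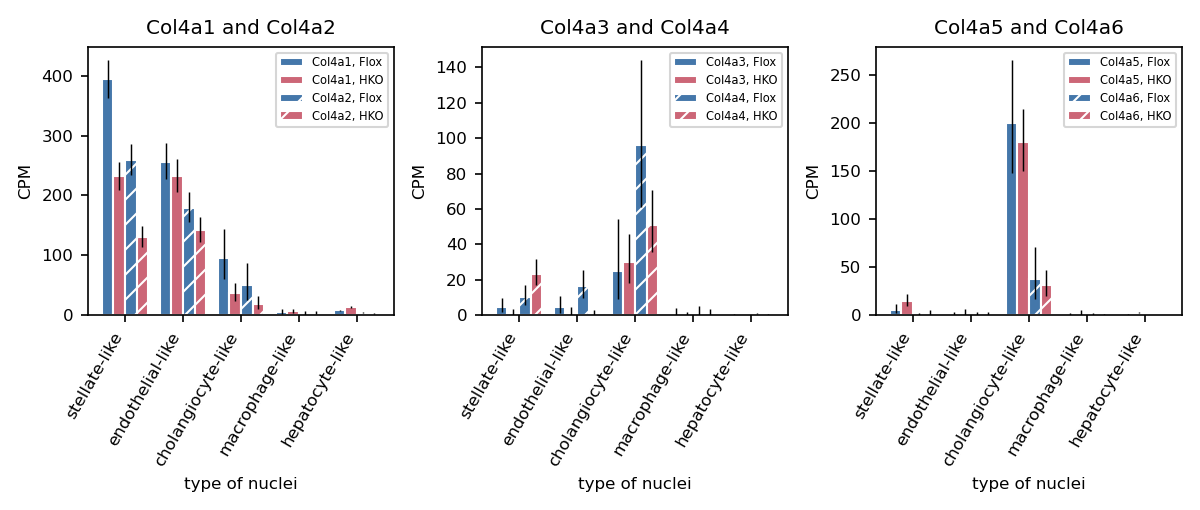
Level in CPM of the 6 type IV chains in 5 cell types for the libraries labelled Flox and HKO, 1 panel per gene pair, with the second chain of a pair hatched; bars are levels and lines 95% intervals from counting error. *Col4a1* and *Col4a2* are highest in stellate-like and endothelial-like nuclei, and *Col4a3* to *Col4a6* in cholangiocyte-like nuclei.

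Type VI collagen forms beaded filaments around cells. *Col6a1*, *Col6a2* and *Col6a3* had 94.3%, 91.6% and 92.3% of their UMIs in stellate-like nuclei for the label Flox and 92.5%, 96.2% and 90.4% for the label HKO. *Col6a3* was at 417 CPM (385–450.4) and 477 CPM (445–511), a ratio of 1.15 (1.03–1.27). The ratio was 0.905 (0.765–1.07) for *Col6a1*, from 281 and 285 UMIs, and 1.26 (0.980–1.63) for *Col6a2*, from 109 and 154. The 4 chains summed to 674 and 743 CPM, so the type as a whole differed little, by a ratio of 1.10 (1.01–1.20). *Col6a6* had 1 and 13 UMIs in stellate-like nuclei, a ratio of 11.6 whose interval reached from 1.74 to 493.

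*Col8a1*, a short-chain collagen of vessel walls, was shared by stellate-like and endothelial-like nuclei. It was at 79.0 and 79.9 CPM in the former, a ratio of 1.01 (0.786–1.30), and at 51.7 and 28.3 CPM in the latter, a ratio of 0.548 (0.351–0.846). The endothelial UMIs sat in few nuclei, 24 and 19, with up to 10 in 1 nucleus. Of endothelial-like nuclei thinned to 500 UMIs, 42 and 67 had a UMI of *Vwf*, a marker of larger vessels. These held only 10 and 5 UMIs of *Col8a1*, or 476 and 149 CPM, and the others were at 38.1 and 27.7 CPM. The ratios were 12.5 (4.97–30.3) and 5.38 (1.54–15.4). *Col8a2*, its partner, had 5 UMIs in all nuclei. *Col7a1*, of anchoring fibrils, had 52 UMIs spread over all 5 types.

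Hepatocyte-like nuclei made up most of the UMIs of both libraries, and 21 members had at least 50 UMIs there. Of these, 10 were at least 1.5 times as high in the library labelled HKO, against 10.2% of 13285 genes, and 3 were as much lower, against 12.0% of genes, with a median ratio of 1.31 for the members and 0.987 for all. Among the 10, *Col1a1*, *Col1a2*, *Col3a1*, *Col5a1* and *Col6a3* stood between 0.0803% and 0.352% of their stellate-like level, near the medians of the unused stellate markers, 0.144% and 0.206%. The library labelled HKO had more stellate-like and fewer hepatocyte-like nuclei, and the part of free RNA in these 5 ratios was not tested. The members with levels of their own in hepatocyte-like nuclei are described next.

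*Col18a1*, whose product sheds endostatin and is known to be made by hepatocytes, was at 254 CPM (249.5–259) and 188 CPM (182–193), a ratio of 0.738 (0.714–0.763). *Col27a1* was lower in the library labelled HKO by nearly the same ratio, as given above, whereas *Col5a3* was higher, with 1.25 (1.19–1.31). *P4ha2*, a catalytic subunit of prolyl 4-hydroxylase, was at 6.54 and 14.1 CPM, a ratio of 2.16 (1.86–2.52), and *P4ha1*, the other catalytic subunit, at 28.8 and 37.6 CPM, a ratio of 1.31 (1.21–1.42). *Col25a1*, a membrane collagen known from nerve and muscle, had 105 and 11 UMIs, a ratio of 0.175 (0.0848–0.326). The hepatocyte genes thus did not move together between the libraries. The libraries also differed in the make-up of their hepatocyte clusters, which were formed without batch correction. Cluster 2 held 164 and 1104 nuclei, for example, and cluster 3 held 2196 and 443. The part of this difference in the ratios was not tested.

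Several of these genes also followed the axis of the lobule, along which hepatocytes near the portal vein (zone 1) differ from those near the central vein (zone 3). Within each library, the 5634 and 3864 hepatocyte-like nuclei with at least 10 UMIs of 12 zone markers were ordered by the share of zone 3 markers and cut into 3 groups of 1878 and 1288 nuclei. *Hal*, a zone 1 marker used for the order, was at 290.3 and 168 CPM in the zone 1 group and at 6.26 and 6.04 CPM in the zone 3 group. *Col5a3* fell from zone 1 to zone 3 in both libraries, from 116 over 82.5 to 58.6 CPM and from 132 over 106 to 77.5 CPM, ratios of zone 3 over zone 1 of 0.506 (0.465–0.550) and 0.590 (0.533–0.652). *Col18a1* was also lower in zone 3, at 0.639 (0.609–0.670) and 0.866 (0.806–0.930) of zone 1. *Col25a1* had 79 UMIs in zone 1, 25 in the middle and 0 in zone 3 for the label Flox, and 6, 5 and 0 for the label HKO.

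Other members had the opposite slope. *Col12a1* rose from 2.66 over 8.43 to 18.8 CPM and from 6.54 over 14.3 to 22.3 CPM, ratios of 7.06 (4.99–10.2) and 3.41 (2.51–4.70). *Plod1*, a lysyl hydroxylase, rose from 33.6 to 68.9 CPM and from 33.2 to 78.1 CPM, ratios of 2.05 (1.83–2.29) and 2.35 (2.04–2.72). *Col27a1* differed in slope between the libraries, from 388.5 over 361 to 228.5 CPM for the label Flox and from 201 over 245 to 235 CPM for the label HKO, ratios of 0.588 (0.563–0.614) and 1.17 (1.09–1.25). Its gap between the libraries therefore lay in the zone 1 and middle groups, whereas in the zone 3 groups the levels were 228.5 and 235 CPM. *Cyp2e1*, a zone 3 marker used for the order, was 23.9 and 12.4 times as high in zone 3 as in zone 1, so the groups were less far apart in the library labelled HKO.

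**Figure D5:**
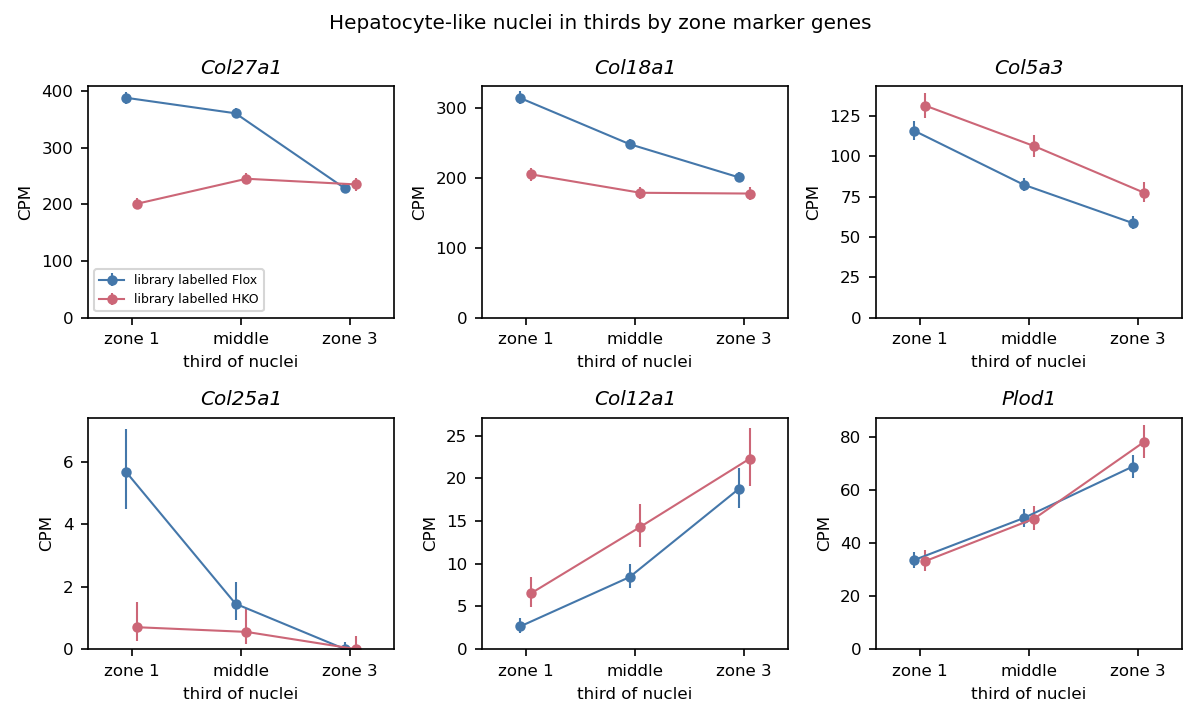
Level in CPM of hepatocyte members in 3 groups of hepatocyte-like nuclei ordered by zone markers from zone 1 to zone 3, for the libraries labelled Flox and HKO; points are levels and lines 95% intervals from counting error. *Col12a1* and *Plod1* rise toward zone 3 in both libraries, *Col5a3* and *Col18a1* fall, and *Col27a1* falls in the library labelled Flox only.

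*Col13a1*, a membrane-spanning collagen, was the member most particular to endothelial-like nuclei by its share of UMIs, 89.7% and 94.7%. It had 174 and 142 UMIs there, at 158 CPM (135–183) and 112 CPM (94.1–132), a ratio of 0.708 (0.563–0.889). In stellate-like nuclei it had 1 and 2 UMIs. Among the 12 members with at least 50 UMIs in endothelial-like nuclei, *Plod2* was at least 1.5 times as high in the library labelled HKO, against 5.42% of 6821 genes, and *Col8a1* was as much lower, against 8.80%. With doublets kept the ratio of *Plod2* was 1.44 in place of 1.69, and with clusters in place of the marker rule that of *Col8a1* was 0.674, so that each was then under 1.5-fold. The median ratio was 0.984 for the members and 0.966 for all genes. *Col23a1*, the last membrane collagen, had 69 UMIs in all nuclei, most of them in hepatocyte-like nuclei.

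The enzymes and the chaperone were less tied to 1 type than the fibrillar chains. *Serpinh1*, which encodes HSP47, was at 378 CPM (348–410.0) and 285 CPM (260.1–311) in stellate-like nuclei, a ratio of 0.754 (0.667–0.852), and at 109.7 and 151 CPM in endothelial-like nuclei, a ratio of 1.38 (1.09–1.74). *P4ha1* was at 213 and 152 CPM in stellate-like nuclei, a ratio of 0.713 (0.603–0.842). Both were lower in the library labelled HKO within each stellate cluster, *Serpinh1* with ratios of 0.840 (0.729–0.967) in cluster 4 and 0.506 (0.391–0.655) in cluster 5, and *P4ha1* with 0.756 (0.622–0.917) and 0.561 (0.395–0.7999). *Plod2*, the lysyl hydroxylase of the telopeptides, which sets the kind of cross-link found in scars, was at 222 and 250.3 CPM, a ratio of 1.13 (0.976–1.30). It was higher in cluster 5 than in cluster 4, by 2.58 (2.04–3.26) and 1.74 (1.43–2.12) times. *P4ha2* was highest in stellate-like nuclei, at 43.4 and 35.8 CPM, a ratio of 0.825 (0.573–1.19). The 5 genes together had 926 and 782 CPM in stellate-like nuclei, a ratio of 0.844 (0.783–0.911), so that they were lower where the summed fibrillar chains were higher.

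*Plod1* and *P4ha1* were the members with clear levels in macrophage-like nuclei. The other member with its highest level there in 1 library was *Col7a1*, from 9 UMIs in that labelled HKO and 1 in that labelled Flox. *Plod1* was at 130.3 and 122 CPM there, above the 70.4 and 59.3 CPM of stellate-like nuclei, and *P4ha1* at 143 and 130 CPM. The level of *Plod1* was not particular to macrophage-like nuclei, since endothelial-like nuclei had 128.7 and 123.5 CPM. Of 3 members with at least 50 UMIs in these nuclei, none was at least 1.5 times as high in the library labelled HKO, against 4.94% of 8152 genes, and *Col27a1* was as much lower, against 11.6%. *Col27a1* lay near the level of free hepatocyte RNA there, as given above, and its ratio was 0.678 with TMM factors, under 1.5-fold. The part of free RNA in this ratio was not tested. The ratios of *Plod1*, 0.938 (0.774–1.14), and *P4ha1*, 0.906 (0.753–1.09), left no difference detectable at this depth.

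In cholangiocyte-like nuclei, which numbered 127 in the library labelled Flox, 5 members had at least 50 UMIs. None was at least 1.5 times as high in the library labelled HKO, against 11.0% of 3512 genes, and *Col4a4*, *Plod2* and *Serpinh1* were as much lower, against 10.9%. *Serpinh1* was at 96.1 and 42.6 CPM, a ratio of 0.443 (0.249–0.799), with 7 of its 23 UMIs in the library labelled Flox in 1 nucleus. These 3 ratios depended on which nuclei were counted in the type. Without *Bicc1* among the markers the ratio was 0.805 for *Serpinh1* and 0.718 for *Col4a4*. With clusters in place of the marker rule it was 0.718 for *Serpinh1*, 0.765 for *Col4a4* and 0.744 for *Plod2*, and without nuclei that held mesothelial genes 0.704 for *Serpinh1* and 0.675 for *Plod2*, all under 1.5-fold. *Col3a1* had 17 and 6 UMIs, of which 8 lay in 1 nucleus. Mesothelial genes moved with these values: a UMI of *Msln*, *Upk3b* or *Muc16* was found in 5 of 127 and 4 of 457 nuclei (3.94% and 0.875%), and their part in the result was not tested.

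Genes that act with the collagens were taken from 5 lists. In stellate-like nuclei, 46 of them had at least 50 UMIs. Among 13 folding and modification genes 0 were higher and 4 lower by 1.5 times, with a median ratio of 0.804, and among 13 genes of export, processing and cross-linking 2 were higher and 4 lower, with a median of 0.960. Of 14 matrix partners 1 was higher and 2 were lower, of 5 receptors 0 and 1, and the 1 gene among 15 further collagens passed neither limit. These shares stand beside 5.49% and 11.9% of all genes. The lowest ratios belonged to *Pcolce*, an enhancer of procollagen cleavage, at 0.463 (0.370–0.578), *Ppib*, a proline isomerase that folds the helix, at 0.468 (0.375–0.582), and *Dcn*. The highest belonged to *Thbs2*, a matricellular protein, at 1.85 (1.42–2.42), and to *Adamts14* and *Bmp1*, both proteinases that trim procollagen, at 1.57 (1.16–2.15) and 1.51 (1.19–1.93). *Ppib* was lower in hepatocyte-like nuclei too, at 126 and 56.1 CPM.

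In endothelial-like nuclei 24 genes of the same lists had at least 50 UMIs. *Colgalt1*, which adds galactose to hydroxylysine in collagen, was highest by ratio, at 90.6 and 158 CPM, or 1.74 (1.36–2.24). *Hspg2*, which encodes perlecan of basement membranes, followed at 1.42 (1.21–1.66) and *Fn1*, fibronectin, at 1.38 (0.964–1.98). *Fn1* was there at 5.10% and 6.70% of its hepatocyte-like level, below the 11.8% and 10.8% at which unused hepatocyte markers stood at the median, so this value is at the level of free hepatocyte RNA. The lowest were *Bgn*, a small proteoglycan, at 0.612 (0.502–0.743), *Fkbp7*, a proline isomerase, at 0.662 (0.394–1.10), and *Loxl2*, a cross-linking oxidase, at 0.759 (0.490–1.17). *Colgalt1* was higher in the library labelled HKO in macrophage-like nuclei as well, at 434 and 816 CPM, and in hepatocyte-like nuclei, at 115 and 160.0 CPM.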

How the data were processed

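Nuclei of MASH mouse livers were sequenced with the 10x 3′ method in 2 libraries, 1 per group, which the labels name. The authors deposited raw UMI counts per gene and nucleus, made with Cell Ranger 8.0.1 on GRCm38 with intronic reads excluded. The unit is counts, with no normalization. No paired or replicate test was possible with 1 library per group.

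Nuclei with at least 300 detected genes were kept. Likely doublets, scored with Scrublet in scanpy 1.11.5, were removed at an expected rate of 0.8% per 1000 barcodes. Whether the deposited matrices already lacked doublets is not given in the sources used here. A nucleus was given 1 of 8 types when it had at least 3 UMIs from at least 2 markers of that type, a marker level of at least 10% of the type's own, and an excess of at least 2 times over any other type; 94 and 139 mixed and 111 and 497 untyped nuclei were left out, and 8 and 20 stellate-like nuclei lay within 1.5 times of the limit on excess. Types carry names of resemblance. CPM is the share of a gene in the summed UMIs of a type and library, per 1000000 UMIs. Intervals are exact: Poisson for CPM, conditional binomial for ratios and Clopper-Pearson for shares. A count of 0 was given the limit of 3 counts. Interval coverage was tested only on simulated Poisson counts, which hold counting error alone, so the test cannot speak for spread between nuclei. Clusters were formed with the Leiden method in scanpy on both libraries together, without batch correction, at a resolution of 1 with 15 principal components.

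The members and lists were chosen with earlier results of these data known. A first form of the marker rule left out collagen-rich nuclei and was changed for that reason, so the stellate-like type was set with its collagen in view. This form of the rule, the zone and mesothelial lists, and the splits of stellate-like, endothelial-like and hepatocyte-like nuclei were chosen after the data had been seen. Members were to be described in each type with at least 50 UMIs over both libraries, and otherwise where they were highest. Not all such values are printed, and those of *Col4a5* and *Col14a1* in hepatocyte-like nuclei are among the ones left out. From the other lists the 3 highest and 3 lowest ratios were named; *Colgalt1* and *Ppib* in further types, and genes that describe the clusters or zones, were added after their values were seen. Alternatives were another normalization (TMM factors of edgeR 4.0.16), clusters in place of the marker rule, doublets kept, other minimums, equal weight per nucleus, stricter markers, and 4 that were added later. Promoters came from RefSeq windows; no sequence of the proteins was used here.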

Additional observations from a re-analysis of the deposited data

Results flagged for a closer look

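Several members had ratios of the library labelled HKO over that labelled Flox on opposite sides of 1 in different cell types, with intervals that left out 1 in both. These differences between types were not tested, since each library was 1 sample. *Col27a1* was higher in stellate-like nuclei (1.46) and lower in macrophage-like nuclei (0.623). The latter level lay near the median of free hepatocyte RNA, and its ratio was 0.678 with TMM factors, under 1.5-fold. *Col4a1* was higher in hepatocyte-like nuclei (1.64) and lower in stellate-like nuclei (0.590). *Col4a4* was higher in stellate-like nuclei (2.23) and lower in cholangiocyte-like nuclei (0.532), the latter by less than 1.5-fold with clusters or without *Bicc1*. *Col8a1* was higher in hepatocyte-like nuclei (3.27), where it had 24 and 47 UMIs, and lower in endothelial-like nuclei (0.548). *Serpinh1* was higher in endothelial-like nuclei (1.38) and lower in cholangiocyte-like nuclei (0.443).

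Nuclei that were left out of the comparisons also held fibrillar collagen. The summed level of *Col1a1*, *Col1a2*, *Col3a1*, *Col5a1*, *Col5a2* and *Col11a1* was 633 and 1381 CPM in mixed nuclei, which carried markers of more than 1 type, and 238 and 417 CPM in untyped nuclei. In hepatocyte-like nuclei the same sum was 4.36 and 8.58 CPM.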

How the results depend on the processing

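No paired analysis was possible because each group had 1 library, and no library could be left out. Counts of members at least 1.5 times as high in stellate-like nuclei of the library labelled HKO are given with the share of all genes. The reported count was 2 of 22 (5.49%). It was 1 of 21 with the first form of the marker rule (5.24%) and 1 of 21 without nuclei that held mesothelial genes (5.48%). With at least 20 UMIs it was 4 of 25 (8.4%), and with at least 200 UMIs 0 of 18 (2.89%). It was 3 of 22 with TMM factors (6.73%) and 3 of 24 with clusters (5.71%). It was also 3 of 23 with doublets kept (5.69%) and 3 of 23 with mixed nuclei kept (5.41%). Where the count was 1, *Col4a4* had under 50 UMIs, with ratios of 2.045 and 2.917. The count of lower members, 3 of 22 as reported (11.9%), was 1 of 22 with a limit of 2-fold (3.09%). The ratio of summed fibrillar chains, 1.139 as reported, was 1.19 with equal weight for each nucleus and 1.068 with the first form of the marker rule; every other alternative left it within its counting interval. The ratio of *Col4a1* and *Col4a2* in endothelial-like nuclei lay between 0.847 and 0.959, and the count of members highest in stellate-like nuclei between 16 and 19. Of 63 ratios of a member in a type, 24 were past 1.5-fold, and none of these changed its side of 1 under 10 alternatives, while 8 fell under 1.5-fold in at least 1. The shares of all genes past that limit are given above for each type. Of the other ratios 11 changed side, among them *Col27a1* in endothelial-like nuclei, from 1.253 to 0.7115 with clusters, and *Serpinh1* in hepatocyte-like nuclei, from 0.8235 to 1.609 with clusters. Ratios left their interval 3 times with clusters, 1 time each with equal weight and without *Bicc1*, and 2 times with the first marker rule, for *Col1a1* (1.052) and *Col1a2* (1.226). For the changes with another marker rule or weight the cause was not tested. TMM factors raised log2 ratios by 0.127 in cholangiocyte-like and 0.122 in macrophage-like nuclei. Depth limits members under 50 UMIs in a type most.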

Other observations

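*Col6a5*, a type VI chain outside the members described above, had 0 UMIs in stellate-like nuclei of the library labelled Flox and 21 UMIs in 12 such nuclei of that labelled HKO, which makes it at least 6.25 times as high when the count of 0 is set to the limit of 3 counts. The difference has no replicate check. *Col4a3* and *Col4a4* together had 23 UMIs in endothelial-like nuclei for the label Flox and 1 for the label HKO. The list of activated stellate genes, 9 in number, summed to 733 and 785 CPM in stellate-like nuclei, a ratio of 1.07 (0.988–1.16), and that of smooth muscle genes, 7 in number, to 147 and 139 CPM, a ratio of 0.948 (0.787–1.14), with 2 of the 7 at 0 in both libraries.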
